A study of Homo sapiens with 12 samples.

Results

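The trefoil factors TFF1, TFF2 and TFF3 were examined in 3 established prostate cell lines. They are 3 of the 58302 genes in the deposited expression table and were found by their gene symbols. They were chosen by their FPKM in these same libraries, known beforehand from the comparison of the 3 lines, so their levels are given as a description and carry no test.

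Trefoil factors are small, stable peptides that mucus-secreting epithelia release together with mucins. Each carries the trefoil domain, a fold of 3 loops held together by disulphide bonds between cysteines. TFF1 and TFF2 are the peptides of the stomach, made by surface mucous cells and by mucous neck and gland cells respectively, and TFF3 is the peptide of intestinal goblet cells. TFF1 is also a long-known estrogen-responsive gene of breast cancer cells, and trefoil factors are made by a share of prostate tumours.

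RNA was sequenced from 4 libraries each of BPH-1, a benign prostate epithelial line, and of DU145 and PC3, both PCa lines that do not depend on androgen. The labels give the genotype of all 12 libraries as WT and name no treatment, and all lines grew in DMEM with 10% fetal bovine serum, penicillin and streptomycin. Each line is a single established culture and stands for no other tumour or donor. Nothing says that the libraries of a line came from separate cultures, so p-values measure only the spread between these libraries, which may be technical.

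Expression was given as FPKM, fragments scaled to gene length and to library depth, and whole reads were recovered from the steps between low values. The depth was 12950662 to 16309558 reads over the 12 libraries. On the log2(FPKM + 1) scale, the mean correlation of a library with the others of its line was 0.966 to 0.973 in BPH-1, 0.913 to 0.942 in DU145 and 0.949 to 0.971 in PC3. PC3 replicate 4 had the 0.949, and 37.4% of the 10269 genes with a mean of at least 100 reads in PC3 were lowest in it and 39.0% highest. Of the markers of prostate epithelium, KLK3, the gene of prostate-specific antigen, was at 0 reads in all 12 libraries. KRT5, KRT14 and TP63, which mark basal cells, were at 147, 203 and 12.9 FPKM in BPH-1 and at most at 0.216 FPKM on average in both other lines. The basal marker KRT15 did not follow them, at 1.31 FPKM in BPH-1, 0.270 in DU145 and 1.67 in PC3 on average. Summed FPKM of the 8 luminal markers was 154 to 214 in BPH-1, 92.8 to 168 in DU145 and 221 to 368 in PC3. The adhesion genes CDH1 and EPCAM among them were at 0.180 and 0.376 FPKM in DU145, where the epithelial keratin KRT18 was at 69.0 FPKM.

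The 3 genes lie side by side on the minus strand of chromosome 21 (band 21q22.3) in GRCh38. TFF3 (ENSG00000160180) spans 42311667 to 42315651, TFF2 (ENSG00000160181) spans 42346357 to 42351128 and TFF1 (ENSG00000160182) spans 42362282 to 42366594. The cluster covers 54928 bases, with 30705 bases between TFF3 and TFF2 and 11153 bases between TFF2 and TFF1. The exons that encode the trefoil domain are shown because they are what makes these genes a family. They are taken from GENCODE 29 transcripts and printed 5′ to 3′ on the coding strand, with the in-frame cysteine codons (TGC or TGT) in capitals.
TFF1 exon 2: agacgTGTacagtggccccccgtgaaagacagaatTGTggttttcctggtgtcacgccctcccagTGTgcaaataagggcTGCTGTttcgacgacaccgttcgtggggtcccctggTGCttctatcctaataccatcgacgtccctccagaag
TFF2 exon 2: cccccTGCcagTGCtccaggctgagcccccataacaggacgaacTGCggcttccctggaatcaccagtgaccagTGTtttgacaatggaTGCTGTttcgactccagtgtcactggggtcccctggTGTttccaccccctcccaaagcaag
TFF2 exon 3: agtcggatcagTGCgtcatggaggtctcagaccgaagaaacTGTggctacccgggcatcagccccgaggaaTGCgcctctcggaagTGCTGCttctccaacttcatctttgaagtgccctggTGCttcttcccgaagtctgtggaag
TFF3 exon 2: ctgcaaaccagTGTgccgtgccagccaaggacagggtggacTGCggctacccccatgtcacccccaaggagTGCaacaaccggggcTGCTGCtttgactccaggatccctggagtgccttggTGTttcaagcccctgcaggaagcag

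TFF1 exon 2 (42363255 to 42363407) and TFF3 exon 2 (42313485 to 42313631) each hold 1 domain, whereas TFF2 holds 2, in exon 2 (42349881 to 42350030) and exon 3 (42347486 to 42347632). Each exon carries 6 cysteine codons except TFF2 exon 2, which carries 7. A pair of adjacent cysteine codons stands in all 4 exons. Identity between the exons was 59.0% to 68.7% over 6 pairs, and the longest run shared by any pair was 15 bases. No stretch of 30 bases in the transcripts of TFF1 (522 stretches) or TFF3 (1201 stretches) occurred in a transcript of another gene. For TFF2, 25 of 859 stretches (2.91%) did, so that a small part of its length can take reads from elsewhere.

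TFF1, the surface mucous peptide of the stomach, was read in all 4 PC3 libraries and in none of the others. Its FPKM was 100 in PC3 replicate 1 (716 reads), 113 in replicate 2 (851 reads), 164 in replicate 3 (1251 reads) and 183 in replicate 4 (1304 reads). All 4 BPH-1 and all 4 DU145 libraries held 0 TFF1 reads. The PC3 mean was 139.8 ± 39.6 FPKM (SD, n = 4). Against the level that 3 reads would give in each library, TFF1 was at least 397-fold higher in PC3 than in BPH-1 and at least 392-fold higher than in DU145. Among the 21904 to 22716 genes above 0 in a PC3 library, TFF1 ranked between 175 and 289.

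TFF2, the peptide with the double domain, had the same pattern at a lower level. It was at 5.70 FPKM in PC3 replicate 1 (109 reads), 7.76 in replicate 2 (157 reads), 14.0 in replicate 3 (287 reads) and 9.10 in replicate 4 (174 reads). Again no BPH-1 or DU145 library held a read of it. The PC3 mean of 9.15 ± 3.54 FPKM (SD, n = 4) was at least 69.5-fold above the 3-read level of BPH-1 and at least 68.6-fold above that of DU145. Its rank in PC3 lay between 2376 and 5024.

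TFF3, the goblet cell peptide, was close to the limit of detection. PC3 replicates 1 to 4 held 8, 7, 11 and 7 reads, which is 0.285, 0.235, 0.365 and 0.249 FPKM, and the other 8 libraries held none. The PC3 mean was 0.284 ± 0.0584 FPKM (SD, n = 4), at least 3.17-fold above the 3-read level of BPH-1 and at least 3.13-fold above that of DU145. TFF3 passed the filter on low values in no comparison, while TFF1 and TFF2 passed it in the comparisons of PC3 with BPH-1 and with DU145, through their PC3 libraries. Every PC3 library lay above every library of the other line for 25.8% of all genes tested against BPH-1 and for 19.1% of those tested against DU145, so that the separation of the members, which chose them, is not a result by itself. With 0 reads in each of 4 libraries, the 3 genes may still hold up to 4.85e-06% of the reads of BPH-1 and 4.89e-06% of those of DU145, which is a limit of counting error only. In bulk RNA, fewer cells that make a transcript and less of it per cell cannot be told apart.

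**Figure D1:**
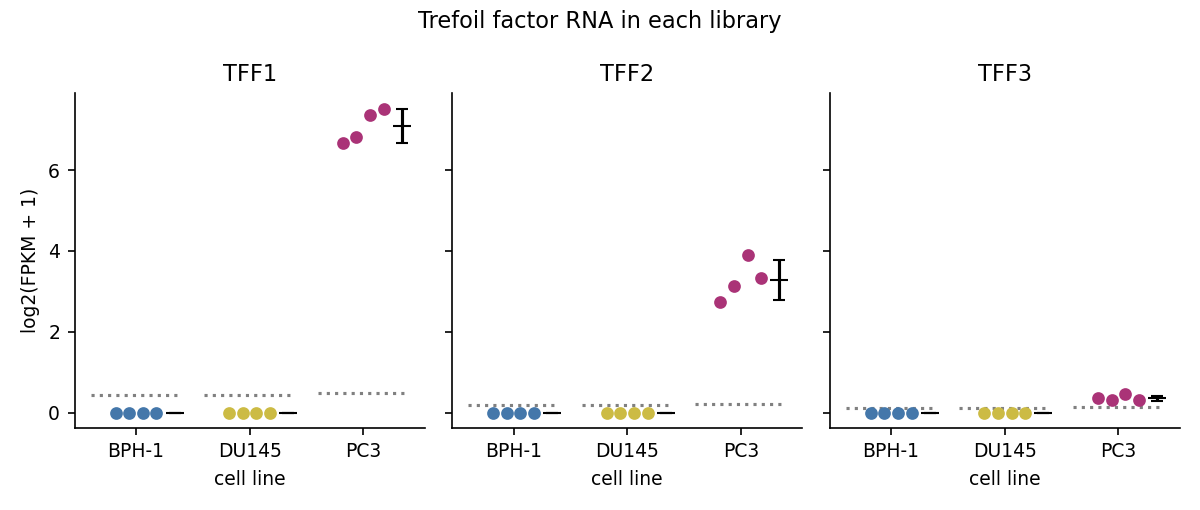
Expression of TFF1, TFF2 and TFF3 as log2(FPKM + 1) in each of the 12 libraries (points, replicates 1 to 4 from left to right within a line). Black bars give the mean ± SD of the 4 libraries and dotted lines the level of 3 reads. Only PC3 libraries lie above 0, at 7.09 ± 0.41 for TFF1, 3.28 ± 0.49 for TFF2 and 0.36 ± 0.06 for TFF3.

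The order in PC3 was TFF1 over TFF2 over TFF3 in each of the 4 libraries, with no overlap. The FPKM of TFF1 was 15.97 ± 3.65 times that of TFF2 (SD, n = 4), with values of 17.6, 14.5, 11.7 and 20.1 in replicates 1 to 4. That of TFF2 was 32.0 ± 8.27 times that of TFF3, with values of 20.03, 33.0, 38.4 and 36.5. The first ratio depends on the gene length used. The length behind the deposited FPKM was the sum of all distinct annotated exons, 551 bases for TFF1, 1476 for TFF2 and 2170 for TFF3, and exons that overlap between transcripts count more than once in it. With overlapping exons merged (551, 830 and 1168 bases), TFF1 was 8.98 ± 2.05 times TFF2, and TFF2 was 30.6 ± 7.92 times TFF3. The mean levels of TFF2 and TFF3 in PC3 were then 16.3 and 0.527 FPKM.

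TFF1 and TFF2 were both lowest in PC3 replicate 1 and were highest in different libraries. The FPKM of TFF1 differed 1.82-fold between its lowest library (replicate 1) and its highest (replicate 4), and that of TFF2 2.46-fold between replicate 1 and replicate 3. The coefficient of variation of TFF1 was 28.3%, against 3.12% that counting reads would give, and that of TFF2 was 38.7% against 7.42%. For TFF3 the 20.6% found was below the 34.8% of counting error, and its libraries could not be told apart at this depth. Among genes with a like number of PC3 reads, 78.8% of 3740 had a smaller variation than TFF1 and 74.2% of 4179 a smaller one than TFF2. Both genes were thus on the variable side of the genes of their abundance, but not at its end. Without replicate 4, the library with the lowest correlation with its own line, the PC3 mean was 126 FPKM for TFF1, 9.16 for TFF2 and 0.295 for TFF3.

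**Figure D2:**
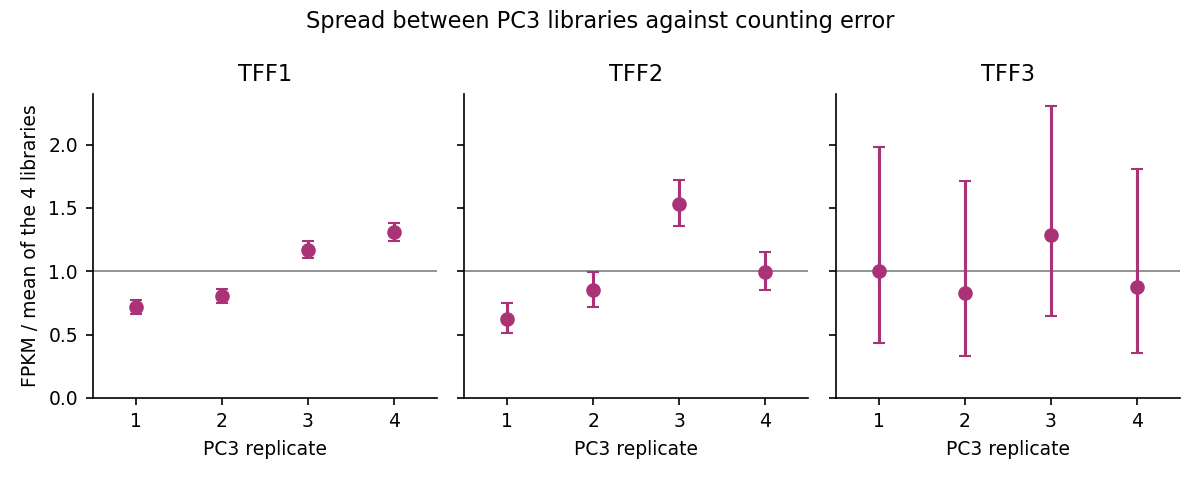
FPKM of each PC3 library divided by the mean of the 4 PC3 libraries, for TFF1, TFF2 and TFF3. Bars are exact 95% Poisson intervals of the reads, which cover counting error only. The intervals of TFF1 in replicates 1 and 2 lie below the mean and those of replicates 3 and 4 above it, TFF2 is highest in replicate 3, and all intervals of TFF3 include the mean.

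Genes read in 1 line alone were not rare. With 0 reads in the 8 libraries of the other lines and at least 10 reads in each of its own, 36 genes were found in PC3 (19 protein-coding), 64 in BPH-1 (40 protein-coding) and 47 in DU145 (34 protein-coding). By mean FPKM, TFF1 was the highest of the 36 and TFF2 the fourth, with PRAC1, a small gene of prostate and colon, at 68.1 ± 16.7 FPKM and the noncoding LINC01351 at 11.8 ± 5.66 FPKM between them (SD, n = 4). TFF3 missed the 10 reads. Of the 36 genes, 5 lie on chromosome 21, which holds 837 of the 58302 genes of the table (1.44%), genes without reads included. TFF1 and TFF2 are among the 5 and were chosen by their levels, so this number is a description and was not tested. The others on chromosome 21 were CLDN14, a tight junction claudin (1.68 ± 0.514 FPKM), the noncoding LINC00161 (2.80 ± 0.951 FPKM) and TSPEAR (0.786 ± 0.516 FPKM).

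The genes whose pattern over the 12 libraries was most like that of TFF1, by Pearson's r of log2(FPKM + 1) among 12945 genes, were ZC4H2 (r = 0.9993), SOX21, a transcription factor (0.9987), SYT9, a synaptotagmin of vesicle release (0.9985), C5orf46 (0.9982) and GLIS1, a zinc-finger factor (0.9981). For TFF2 they were BRINP2 (0.9982), TMEM92 (0.9981), SYT9 (0.9962), SARDH, a mitochondrial enzyme of sarcosine breakdown (0.9959), and SERPIND1, the gene of heparin cofactor II (0.9951). All of them were at or near 0 outside PC3, and such an r reflects mainly that 4 libraries are high and 8 are not. At least 0.99 was reached by 54 genes for TFF1 and by 23 for TFF2. None of the named genes lies on chromosome 21. Their PC3 levels ran from 1.45 FPKM for SYT9 to 18.9 FPKM for SOX21, far below that of TFF1.

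The genes around the cluster did not share its pattern as a group. Within 500000 bases on either side lie 27 other genes, 11 of them protein-coding. Between PC3 and BPH-1, 8 of the 27 had enough reads to be tested with limma on log2(FPKM + 1), each fit holding the 2 lines compared. At a Benjamini-Hochberg adjusted p under 0.05, 3 were higher in PC3, 1 was lower and 4 were not called, with a median log2 fold change of 0.21 against -0.13 over all genes tested. Over all 16407 genes tested, 67.6% were called in this comparison, 27.1% as higher in PC3 and 40.4% as lower, and the lines did not overlap for 25.8% (PC3 above BPH-1) and 38.6% (PC3 below). Rescaling all libraries to the same sum shifted the median of all genes by a further -0.16 (log2) and the share of calls that were higher from 40.2% to 30.04%. Between PC3 and DU145, 2 of 10 neighbours tested were higher in PC3, 2 were lower and 6 were not called, where 48.3% of all 16421 genes tested were called, 20% as higher and 28.3% as lower.

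The nearest protein-coding neighbours were low in every line. TMPRSS3, a membrane serine protease gene 5.3 kb from TFF1, was at 0.276 ± 0.190 FPKM in BPH-1, 0.00639 ± 0.00826 in DU145 and 0.225 ± 0.0396 in PC3 (SD, n = 4). Its PC3 and BPH-1 levels were not told apart (log2 fold change -0.05 ± 0.09 (SE), limma adjusted p = 0.665), and it was higher in PC3 than in DU145 (0.28 ± 0.04, adjusted p = 0.000252). UBASH3A, a suppressor of T cell signalling 36.9 kb away, had 11, 13, 19 and 8 reads in the PC3 libraries, at most 2 in BPH-1 and none in DU145, which was too few for the test. RSPH1, a gene of ciliary radial spokes 105.9 kb away, lay between 0.269 and 0.643 FPKM on average in the 3 lines. On the other side, ABCG1, a cholesterol exporter gene 14.4 kb from TFF3, was at 1.41 ± 0.481 FPKM in BPH-1, 0.574 ± 0.221 in DU145 and 1.14 ± 0.594 in PC3, and UMODL1 was at 0 in all 12 libraries.

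The neighbour that differed most in the direction of the trefoil factors was C2CD2, 357.8 kb from TFF3. It was at 11.9, 14.7, 16.6 and 13.1 FPKM in PC3 replicates 1 to 4, above the 1.499 to 2.06 of BPH-1 and the 1.43 to 3.18 of DU145. The log2 fold change was 2.46 ± 0.13 (SE) against BPH-1 (limma adjusted p = 4.09e-07) and 2.18 ± 0.19 against DU145 (adjusted p = 2.10e-05). PDE9A, a phosphodiesterase of cyclic GMP 287.0 kb from TFF1, went the other way. It was at 7.52 to 12.2 FPKM in DU145 and had 0 reads in all 4 PC3 libraries, at least 271-fold lower. WDR4, a subunit of a tRNA methyltransferase, was higher in both PCa lines than in BPH-1, at 19.0 ± 2.93 FPKM in PC3 and 19.95 ± 4.57 in DU145 against 8.01 ± 1.02 (SD, n = 4; limma adjusted p = 5.32e-05 and 0.000395).

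**Figure D3:**
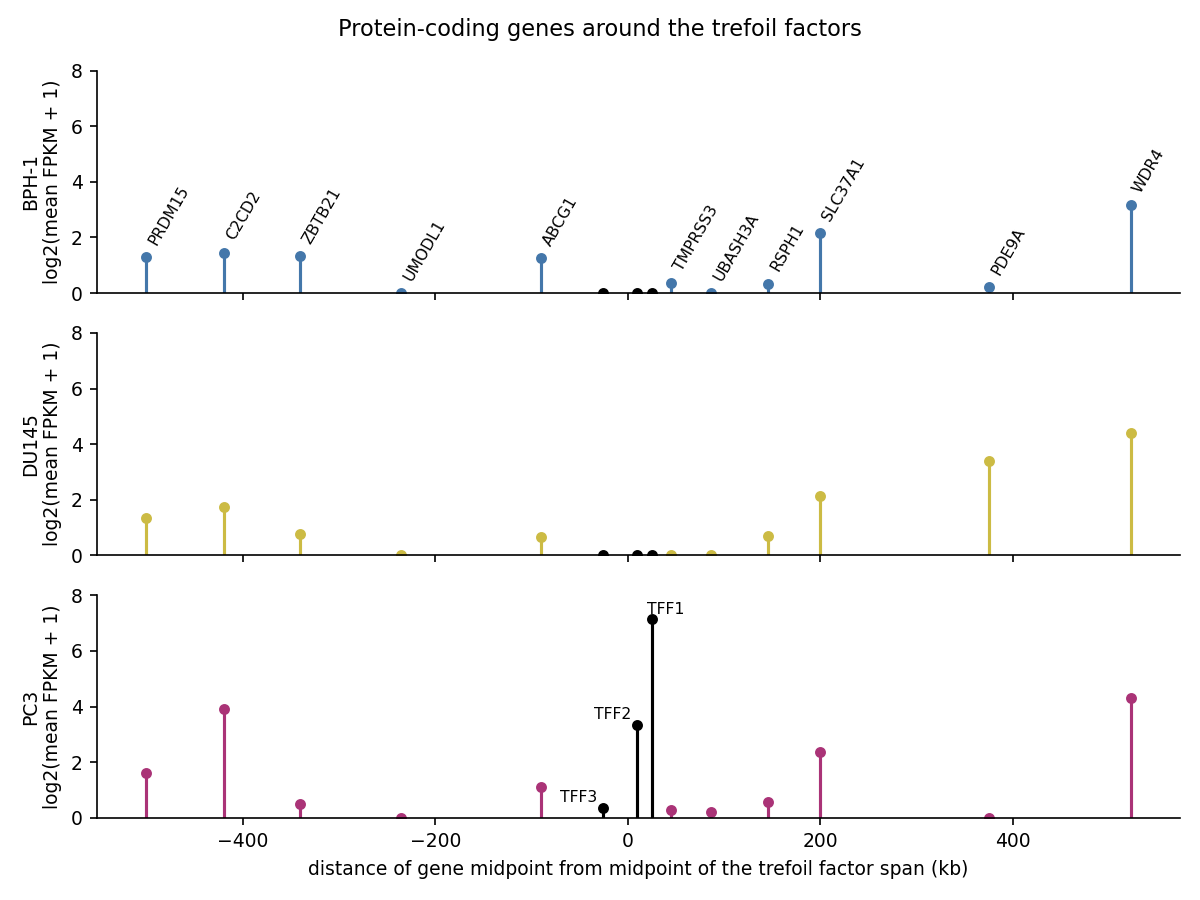
Mean expression of the 11 protein-coding genes within 500000 bases of the trefoil factors (coloured) and of the 3 members (black), as log2(mean FPKM + 1), against the distance of each gene's midpoint from that of the cluster in kb, 1 panel per line. TFF1 and TFF2 stand out in PC3 between ABCG1 (1.14 FPKM) and TMPRSS3 (0.225 FPKM), while C2CD2 and WDR4 in PC3 and PDE9A and WDR4 in DU145 are high toward the edges of the region.

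Mucins and the proteins that fold or link them are the partners of trefoil peptides in mucus, and the gel-forming MUC5AC, MUC5B and MUC2 were higher in PC3. MUC6, the gel-forming mucin of stomach glands, had 3 to 20 reads in the PC3 libraries (0.108 FPKM on average) and at most 2 elsewhere, and was not tested. Of 19 such genes, 9 were tested between PC3 and BPH-1, of which 5 were higher in PC3 (MUC5B, MUC5AC, AGR2, MUC2 and FCGBP) and 4 lower (MUC1, MUC4, MUC16 and MUC20). Of all genes tested, 27.1% were called higher in PC3 and 40.4% lower. MUC5AC, MUC5B and MUC2 passed the filter on low values through their PC3 libraries and could only be called higher. MUC4 and MUC20 passed it through BPH-1 and could only be called lower. With 10 reads required in every library, 3 of the list were called, of which 1 was higher in PC3. The median log2 fold change of the 9 was 0.95. Between PC3 and DU145, 4 of 9 were higher in PC3, 2 lower and 3 not called, with a median of 0.29 against -0.05 over all genes tested. In that comparison, 20% of all genes tested were called higher in PC3 and 28.3% lower.

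MUC5AC, the gel-forming mucin that TFF1 accompanies in the stomach, was at 20.9, 31.9, 42.6 and 10.8 FPKM in PC3 replicates 1 to 4. BPH-1 held no read of it and DU145 at most 9. It was at least 2387-fold higher in PC3 than the 3-read level of BPH-1 and 1677-fold higher than the mean of DU145 (4.60 ± 0.35 (SE) on the log2 scale, limma adjusted p = 9.19e-06). MUC5B, its neighbour on chromosome 11 and a mucin of airways and salivary glands, was at 52.9, 68.3, 69.1 and 24.8 FPKM. It was likewise without reads in BPH-1, which made it at least 5354-fold higher in PC3, and had at most 12 in DU145, a 2696-fold ratio of means. Both mucins were thus separated from the other lines by a wide margin in each library, and both were lowest in replicate 4, where TFF1 was highest.

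AGR2, an isomerase of the endoplasmic reticulum needed to fold mucins, followed the same lines. It was at 13.8, 25.9, 21.7 and 9.27 FPKM in PC3, at 0.289 ± 0.190 in BPH-1 (SD, n = 4) and without reads in DU145. The log2 fold change was 3.77 ± 0.28 (SE) against BPH-1 (limma adjusted p = 3.34e-06), a 61.1-fold ratio of means. MUC2, the intestinal gel-forming mucin, reached 0.983, 1.90, 1.81 and 0.384 FPKM in PC3 and at most 0.0403 FPKM elsewhere (log2 fold change against BPH-1 1.09 ± 0.21, adjusted p = 0.00117). FCGBP, the mucus protein that binds TFF3, was at 1.24 FPKM in PC3, 0.788 in DU145 and 0.127 in BPH-1 on average. It was higher than in BPH-1 in both PC3 (0.95 ± 0.19, adjusted p = 0.00143) and DU145 (0.65 ± 0.13, adjusted p = 0.00128), and PC3 and DU145 were not told apart (0.29 ± 0.22, adjusted p = 0.307).

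The mucins called lower in PC3 are membrane-bound, but not all membrane-bound mucins of the list were lower. MUC12 and MUC13, also membrane-bound, had too few reads to be tested between PC3 and BPH-1. MUC12 had 4 to 9 reads in the PC3 libraries and at most 1 in those of BPH-1, and MUC13 had 5 to 15 and at most 2. MUC1 was at 0.180 ± 0.0264 FPKM in PC3, 0.597 ± 0.300 in BPH-1 and 1.13 ± 0.270 in DU145 (SD, n = 4), lower than in BPH-1 by 0.42 on the log2 scale (adjusted p = 0.00942). MUC4, MUC16 and MUC20 were uneven in BPH-1, MUC16 for instance at 0.139, 2.03, 0.111 and 1.35 FPKM in replicates 1 to 4. Their calls did not hold when single libraries were left out. Without BPH-1 replicate 4 the adjusted p was 0.0675 for MUC4, 0.123 for MUC16 and 0.0688 for MUC20, without PC3 replicate 1 it was 0.0626, 0.0794 and 0.0513, and the calls of MUC4 and MUC16 were also lost without each of the other PC3 libraries (0.0643 to 0.0862). MUC16 was further at 0.102 without BPH-1 replicate 2. DU145 had few of these transcripts. Against BPH-1, 7 of the 19 genes were tested, of which 2 were higher (FCGBP and MUC1) and 3 lower (AGR2, MUC16 and MUC20), where 62.7% of all 17017 genes tested were called, 30.3% as higher and 32.4% as lower. AGR2, MUC16 and MUC20 passed the filter on low values through BPH-1. The 5 calls came to 2 without DU145 replicate 1 or replicate 2, and to 3 without BPH-1 replicate 4, DU145 replicate 3 or DU145 replicate 4. MUC1 was higher in DU145 by 0.43 ± 0.15 (SE) on the log2 scale (limma adjusted p = 0.0274), a call lost without BPH-1 replicate 1 or 3 or DU145 replicate 1 or 2 (0.0571 to 0.0886).

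Receptors have been proposed for trefoil peptides. Of 7 receptor genes and ligands examined, 4 were tested between PC3 and BPH-1, of which none was higher in PC3, 3 were lower and 1 was not called (median log2 fold change -0.42). Of all genes tested, 27.1% were called higher in PC3 and 40.4% lower. CXCR4 passed the filter on low values through BPH-1 and could only be called lower. ACKR3, with 6 to 24 reads in the PC3 libraries and 25 to 50 in those of BPH-1, also passed it through BPH-1. With 10 reads required in every library, 1 gene of the list was called, and it was lower in PC3. CXCR4, proposed for TFF2, was at 0.0372 ± 0.0404 FPKM in PC3, 0.371 ± 0.0732 in BPH-1 and 0.400 ± 0.221 in DU145 (SD, n = 4; PC3 against BPH-1 on the log2 scale -0.40 ± 0.05 (SE), limma adjusted p = 8.76e-05). ACKR3, a second chemokine receptor, was at 0.360 FPKM in PC3 and 0.844 in BPH-1 (-0.44 ± 0.13, adjusted p = 0.0135). EGFR, the epidermal growth factor receptor, was at 18.2, 11.6, 9.18 and 6.998 FPKM in PC3, below the 37.5 to 47.9 of BPH-1 (-1.84 ± 0.24, adjusted p = 0.000105). It was at 5.60, 31.4, 2.33 and 31.9 FPKM in DU145, whose call against BPH-1 (adjusted p = 0.0393) was lost without any of the BPH-1 libraries or without DU145 replicate 1 or replicate 3 (0.0674 to 0.106). F2RL1, a receptor activated by proteases, was at 33.0 FPKM in PC3 and 24.7 in BPH-1 and did not pass the test (0.36 ± 0.24, adjusted p = 0.203), while DU145 was lower than both at 2.45 FPKM. LINGO2, proposed for TFF3, had 5 to 14 reads in the PC3 libraries, at most 7 in BPH-1 and none in DU145, LINGO3 had at most 9 reads in any library, and CXCL12, the ligand of CXCR4, at most 1.

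Among 22 transcription factors known to act on trefoil genes or in mucous epithelia, 17 were tested between PC3 and BPH-1, of which 7 were higher in PC3, 4 lower and 6 not called (median log2 fold change 0.11). The shares over all genes tested were 27.1% called higher and 40.4% lower. Between PC3 and DU145, 6 of 17 were higher in PC3, 6 lower and 5 not called (median -0.30). Of all genes tested between PC3 and DU145, 20% were called higher in PC3 and 28.3% lower. Between DU145 and BPH-1, 11 of 15 were higher in DU145, 3 lower and 1 not called (median 0.68). The 11 came to 7 with libraries scaled to the same sum and to 8 without BPH-1 replicate 1 or without DU145 replicate 1, and 30.3% of all genes tested were called higher in DU145 with all libraries. SPDEF, an Ets factor of goblet cells and of prostate epithelium, differed most. It was at 41.2, 47.5, 51.2 and 42.6 FPKM in PC3, while no library of BPH-1 held more than 5 reads and none of DU145 more than 2 (log2 fold change against BPH-1 5.46 ± 0.11 (SE), limma adjusted p = 2.60e-09). SPDEF passed the filter on low values through its PC3 libraries and could only be called higher there. It varied little between the PC3 libraries, in which TFF1 varied 1.82-fold. With 10 reads required in every library, 5 factors of the list were called between PC3 and BPH-1, of which 3 were higher in PC3.

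FOXA1 and FOXA2, which open chromatin for other factors in endodermal epithelia, followed. FOXA1 was at 36.0 FPKM in PC3 (31.7 to 38.8), 6.33 in DU145 (4.996 to 7.61) and 1.51 in BPH-1 (0.673 to 2.90), so that the 3 lines did not overlap. PC3 exceeded BPH-1 by 3.96 ± 0.24 and DU145 by 2.35 ± 0.15 on the log2 scale (adjusted p = 9.25e-07 and 3.90e-06). FOXA2 was at 14.2, 17.2, 15.8 and 6.67 FPKM in PC3, against 1.04 in DU145 and 0.466 in BPH-1 on average (log2 fold change against BPH-1 3.24 ± 0.26, adjusted p = 5.54e-06). ESR1, the estrogen receptor through which TFF1 is induced in breast cancer cells, had 0 reads in all PC3 and DU145 libraries and 73 to 99 reads in those of BPH-1 (0.315 ± 0.0482 FPKM, at least 24.8-fold lower in PC3). ESR2, the second estrogen receptor gene, had at most 13 reads in any library.

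STAT3, a factor activated by cytokines, had the largest fall of the list between BPH-1 and PC3. It had 6 to 12 reads in the PC3 libraries (0.0416 FPKM on average), against 15.4 FPKM in BPH-1 and 24.2 in DU145 (PC3 against BPH-1 on the log2 scale -3.96 ± 0.12, adjusted p = 2.15e-08). Between PC3 and BPH-1, STAT3 and ESR1 passed the filter on low values through BPH-1 and could only be called lower in PC3. CEBPB and HIF1A were also lower in PC3 than in BPH-1 (-0.79 ± 0.15, adjusted p = 0.00143, and -2.17 ± 0.49, adjusted p = 0.00306). XBP1, a factor of secretory cells, was at 4.54 FPKM in PC3 and 4.20 in BPH-1 and was not told apart (0.11 ± 0.16, adjusted p = 0.560). DU145 differed in other factors, with XBP1 at 15.9 FPKM and GATA4 at 1.74, both higher than in BPH-1 (adjusted p = 2.93e-05 and 1.74e-05). GATA4 passed the filter through DU145 and could only be called higher there. It had no read in PC3, and the intestinal factor CDX2 had none in any line.

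**Figure D4:**
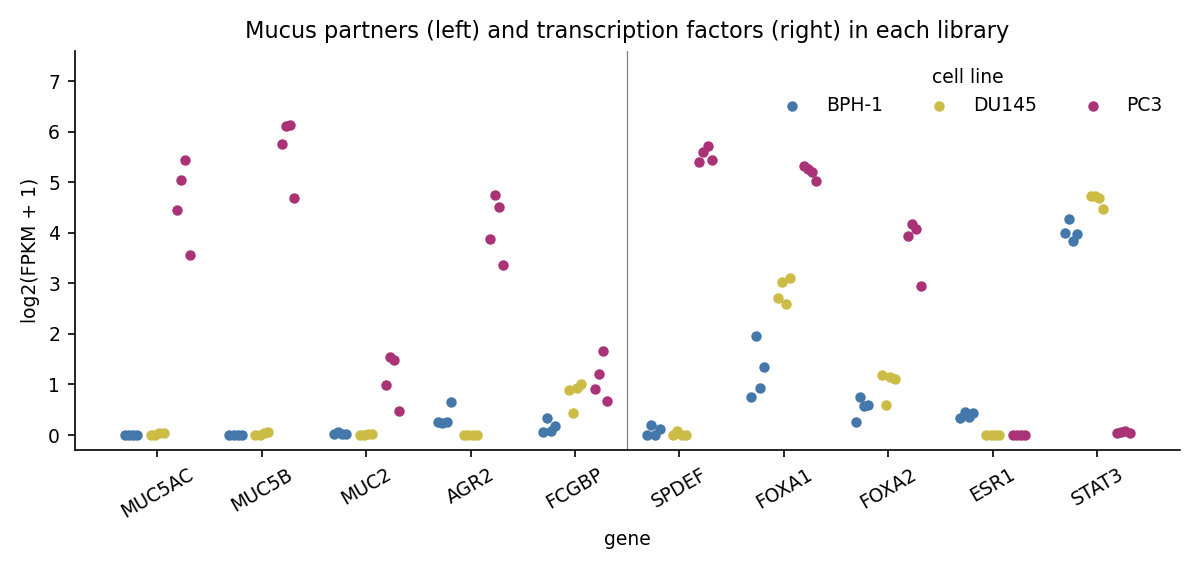
Expression as log2(FPKM + 1) of 5 mucus partners (left of the line) and 5 transcription factors (right) in each of the 12 libraries (points, replicates 1 to 4 from left to right within a line). MUC5AC, MUC5B, AGR2, SPDEF, FOXA1 and FOXA2 are high in all 4 PC3 libraries, with replicate 4 the lowest of them for all but SPDEF, and STAT3 and ESR1 are at or near 0 there.

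Several genes of secretory cells of the stomach and gut were also higher in PC3. Of 18 such genes, 9 were tested between PC3 and BPH-1, of which 5 were higher in PC3, none lower and 4 not called (median log2 fold change 0.59, or 0.53 with genes at 0 in BPH-1 set to 3 reads). Of all genes tested, 27.1% were called higher in PC3 and 40.4% lower. REG4, TSPAN8 and CEACAM6 passed the filter on low values through their PC3 libraries and could only be called higher. With 10 reads required in every library, 2 genes of the list were called, and they were higher in PC3. CEACAM6, an adhesion protein of mucous epithelia, was at 2.67, 4.84, 8.93 and 1.18 FPKM in PC3 and at most 0.2003 in BPH-1 (2.08 ± 0.39, adjusted p = 0.00102). CREB3L1, a membrane-bound factor of secretory cells, was at 4.86 ± 1.56 FPKM against 0.570 ± 0.411 (1.90 ± 0.23, adjusted p = 6.24e-05), and ANXA10, an annexin of gastric epithelium, at 5.61 ± 1.83 against 1.18 ± 0.782 (1.63 ± 0.28, adjusted p = 0.000621). The other called genes, REG4 and TSPAN8, were at 0.517 and 0.496 FPKM in PC3 and had no reads elsewhere. Against DU145, 6 of 9 were higher in PC3, 1 was lower and 2 were not called. In that comparison, 20% of all genes tested were called higher in PC3 and 28.3% lower. The lower gene of the list was PSCA, prostate stem cell antigen, at 4.37 FPKM in DU145 and 0.260 in PC3 (limma adjusted p = 1.99e-05). Among genes of the list with few or no reads, ATOH1, CLDN18 and ITLN1 had 0 in all libraries, and VIL1, CDH17 and LGALS4 at most 4. SPINK4 had 6 to 15 reads in the DU145 libraries and none in BPH-1 or PC3.

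Estrogen-responsive genes of breast cancer cells other than TFF1 did not move one way. Of 14, 12 were tested between PC3 and BPH-1, of which 6 were higher in PC3, 5 lower and 1 not called (median log2 fold change 0.19). The shares over all genes tested were 27.1% called higher and 40.4% lower. IGFBP4, a binding protein of insulin-like growth factors, was at 712 ± 86.4 FPKM in PC3, 101 ± 40.2 in DU145 and 39.5 ± 12.3 in BPH-1 (SD, n = 4; log2 fold change against BPH-1 4.17 ± 0.19 (SE), adjusted p = 1.59e-07). STC2, a secreted glycoprotein gene, and CCND1, cyclin D1, were also higher in PC3 than in BPH-1 (1.41 ± 0.18 and 1.39 ± 0.11, adjusted p = 9.36e-05 and 4.27e-06). PDZK1, a scaffold protein gene, was lower (-3.22 ± 0.26, adjusted p = 6.18e-06). It passed the filter on low values through BPH-1 and could only be called lower. GREB1, a cofactor of the estrogen receptor, was at 0.0183 FPKM in PC3, 0.117 in BPH-1 and 0.676 in DU145, and PGR, the progesterone receptor gene, had at most 1 read in any library. In DU145 against BPH-1, 6 of 12 were higher, 3 lower and 3 not called, where 30.3% of all genes tested were higher and 32.4% lower.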

How the data were processed

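The authors deposited 1 table of normalized values for 58302 genes in 12 libraries (4 each of BPH-1, DU145 and PC3). Its header names no unit. The submitters' processing notes name CASAVA 1.8, HISAT2 2.1.0, edgeR and the GRCh38 build; the counting program, the use of strand and filters are not given in the sources used here. The deposited values behaved as FPKM: taking a gene's length as its distinct GENCODE 29 exons added up, 93.0% to 94.2% of low values came out as whole reads (within 0.05 read), against 19.9% to 23.4% with merged exons. Of the genes, 56610 matched a GENCODE 29 locus, and 263 without a length were left out of tests. Depths were read from these steps, and read limits and intervals (3 reads, exact 95% Poisson) cover counting error only.

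limma 3.58.1 (R 4.3.3, intensity trend) was fitted to log2(FPKM + 1) for genes that reached the equivalent of 10 reads (at median depth) in 4 libraries and a total of 15 reads, with Benjamini-Hochberg adjustment over all genes tested. Fold changes are on the log2(FPKM + 1) scale, which understates changes of low genes, and those of genes at 0 in a line depend on the added 1. Python 3.11.15, numpy 2.4.6, pandas 2.3.3, scipy 1.17.1 and matplotlib 3.10.9 were used. On simulated PC3 and BPH-1 libraries (16389 genes) limma recovered 98% of 100 genes changed 2-fold and 100% of 100 changed 4-fold, with 12 unchanged genes called. Only these genes were changed in the simulation, whereas 67.6% of genes were called between the real PC3 and BPH-1 libraries. Whether the same rates hold for the real libraries, with their own spread and with genes near 0, was not tested. Replicates of a line differed by more than counting error (18 pairs compared, with 17.3 to 215 chi-square units for each gene), so none was a duplicate.

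The members and lists were chosen with earlier results of these data known. Genes named are the members, the 5 genes most like TFF1 and TFF2 (at least 100 reads on average in a line), the nearest neighbours, receptors and transcription factors of the lists, and up to 3 called genes with the largest and smallest change without overlap in each other list. The members of small counts, MUC2, MUC6, MUC12, MUC13, FCGBP, MUC1, REG4, TSPAN8, GREB1, PGR, undetected gut genes, marker genes and genes read in PC3 alone were named after their values were seen. Alternatives were other pseudocounts, filters, scalings (same sum, upper quartile, median of ratios), voom on recovered reads, a replicate block, 1 fit over all lines and leaving out each library; merged exon length was added after the data were seen. Results of some list genes are not reported here by name. TFF promoter and protein sequences were not used here.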

Additional observations from a re-analysis of the deposited data

Results flagged for a closer look

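The 3 members and 42 genes of the lists were examined in each line for 1 library far from the other 3, with a gap to the nearest, as a share of the range, above Dixon's 95% critical value. Of 116 groups of 4 libraries with any reads, 9 had such a library, where chance gives about 5%, and none of the 9 concerned a trefoil factor. In BPH-1 replicate 2, MUC2 was at 0.0403 FPKM against at most 0.0181 in the other 3 libraries and IGFBP4 at 57.8 against at most 35.8. In BPH-1 replicate 4, AGR2 was at 0.574 FPKM against at most 0.199, and GATA4 at 0.0108 FPKM on 2 reads against none. In DU145 replicate 2, XBP1 was lowest at 13.3 FPKM against at least 16.4, and SPDEF had 2 reads (0.0533 FPKM) against none. STAT3 was lowest in DU145 replicate 4, at 21.2 FPKM against at least 24.8. In PC3, MUC4 was highest in replicate 1 at 0.0224 FPKM on 7 reads, against at most 3, and WDR4 was highest in replicate 4 at 23.4 FPKM against at most 17.7.

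For 5 genes, PC3 and DU145 were called in opposite directions against BPH-1 and also differed from each other in the limma fit of these 2 lines. The comparisons against BPH-1 share its libraries. STAT3 and GREB1 in PC3 and AGR2 in DU145 passed the filter on low values through BPH-1 and could only be called lower than it. AGR2 was higher in PC3 (log2 fold change 3.77) and lower in DU145 (-0.36) than in BPH-1, with 4.13 between PC3 and DU145 (adjusted p = 4.73e-06). STAT3 was lower in PC3 (-3.96) and higher in DU145 (0.63), a difference of -4.59 (adjusted p = 4.44e-08). CEBPB was lower in PC3 (-0.79) and higher in DU145 (1.34), a difference of -2.13 (adjusted p = 2.51e-05). The same held for MUC1 (-0.42 and 0.43, difference -0.85, adjusted p = 9.44e-05) and GREB1 (-0.13 and 0.58, difference -0.71, adjusted p = 3.05e-05). In DU145 against BPH-1, AGR2 was no longer called in 1 fit over all 3 lines (adjusted p = 0.220) and STAT3 not with libraries of the same sum (0.0545). MUC1 in DU145 was not called with the same sum (0.0925), with no filter (0.0691), or without BPH-1 replicate 1 or 3 or DU145 replicate 1 or 2 (adjusted p = 0.0571 to 0.0886). GREB1 in PC3 was not called in 1 fit over all 3 lines (0.0665).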

How the results depend on the processing

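The PC3 levels of the 3 trefoil factors moved by less than 1 SD under every scaling and without each PC3 library in turn. TFF1 came to 126 to 153 FPKM, TFF2 to 7.52 to 10.3 and TFF3 to 0.256 to 0.300 over those libraries. With merged exon length TFF2 came to 16.3 FPKM, TFF3 to 0.527 and the ratio of TFF1 to TFF2 to 8.98, and with reads in place of FPKM that ratio was 5.96 and that of TFF2 to TFF3 21.8. With 0.1 in place of 1 added before the log, the differences from lines at 0 came to 10.41 for TFF1, 6.45 for TFF2 and 1.93 for TFF3, in place of 7.09, 3.28 and 0.36.

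Of 357 counts over all genes and lists under the alternatives, 335 lay within 1.5 times the reported count. A filter of 10 reads in every library drops genes that are near 0 in a line. It left 3 mucus partners, 1 receptor, 5 transcription factors and 2 gut genes called in PC3 against BPH-1. In DU145 against BPH-1 it left 1 mucus partner, 1 gut gene and 3 neighbours. In PC3 against DU145 it left 1 mucus partner, 1 receptor, 2 gut genes, 1 neighbour and 5268 genes in all, against 7937 reported. The 2 gut genes called in DU145 against BPH-1 came to 1 with libraries of the same sum and to 1 to 4 without single libraries, and the 5 mucus partners to 2 to 5; the cause was not tested. Of 1450 values for 88 called fold changes of named genes, 1384 stayed past the threshold, 66 did not and none reversed.

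Libraries with the same replicate number did not consistently deviate together (correlations -0.14 to 0.10 between PC3 and BPH-1, -0.09 to -0.06 between DU145 and BPH-1 and -0.66 to 0.52 between PC3 and DU145). With so few libraries per line, a weak pairing by number would not be seen. PC3 and DU145 libraries with different numbers reached -0.66 to 0.70, so deviations were partly shared whatever the number. In DU145, replicates 1 and 3 (37.0 chi-square units for each gene) and 2 and 4 (23.7) were closer than the other pairs (104 to 215). The source of this was not tested. With the replicate block, 10734, 10133 and 6745 genes were called in the 3 comparisons, against 11086, 10668 and 7937, and 1 gut gene in DU145 against BPH-1. TFF3, with 7 to 11 reads, is at the limit of this depth, and levels of all 3 below 3 reads per library in BPH-1 and DU145 cannot be seen.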
